A study of Homo sapiens with 2 samples.

Results

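Expression of 10 transcription factor genes that set the identity of germinal centre B cells and plasma cells was compared between SUDHL6 and HT, a pair of established human cell lines of diffuse large B cell lymphoma. The genes were BCL6, PAX5, EBF1, BACH2, IRF4, IRF8, PRDM1, POU2AF1, SPIB and SPI1, the 10 names of a list of regulators of these stages, taken from 14232 genes that had a value. Each gene was represented by the probe set naming that gene alone. All 10 had a single such probe set, and none shared a further probe set with another gene. Both lines were untreated, grew in RPMI medium with fetal bovine serum, penicillin and streptomycin, and were measured as total RNA on 1 Affymetrix exon array each, in a study of a PRC2 inhibitor that kills lymphoma cells. PRC2 is a complex that methylates histone H3 and silences genes. The labels name no engineered change. Each line is represented by 1 culture, so a difference between them is a difference between 2 cultures and not between classes of lymphoma.

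In a germinal centre, B cells divide, mutate their immunoglobulin genes and are selected. BCL6 represses genes of growth arrest, activation and plasma cell development and holds cells in that stage. PAX5 and EBF1 keep the B cell programme on, SPI1 (PU.1) and SPIB are ETS factors that bind DNA alone or with IRF4 or IRF8, and POU2AF1 (OCA-B) is a coactivator of the octamer factors. BACH2 delays plasma cell development by repressing PRDM1. IRF4 is low in most dividing germinal centre cells and high in plasma cells, and PRDM1 (Blimp-1) shuts off the B cell programme as cells become plasma cells.

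Values are log2 probe set values deposited after RMA, and every difference is SUDHL6 minus HT on that scale. With 1 array per line there is no spread between replicates, no test and no p-value, and the number of arrays limits the precision of every value. A gene was counted as different where it differed by at least 1 either way and its higher value reached the dim level, the 95th percentile of 225 olfactory receptor genes. The dim level was 3.81 in SUDHL6 and 4.11 in HT. The differences of those 225 genes, most of them dim, spanned -1.03 to 1.26 in their central 95%, so a difference near 1 is close to the noise of dim probe sets. Of 9405 genes that reached the dim level, 12.3% differed by at least 1. SUDHL6 was higher for 5.3% and lower for 6.99% of them. The B cell identity of the lines was checked with CD79A (6.47 in SUDHL6, 6.58 in HT), CD79B (5.55 and 5.23), MS4A1, CD22 and CD74, all above the dim level in both lines. The T cell genes CD3D, CD3E and CD3G and the myeloid genes CD14 and LYZ lay below it in both, whereas CD8A (4.40 in SUDHL6, 4.25 in HT) and CD68 (5.53 and 5.95) lay above it in both. In bulk RNA, fewer cells that express a gene and less RNA per cell cannot be told apart.

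Of the 10 factors, 9 reached the dim level, and 4 of these differed by at least 1, against the 12.3% of all genes given above. The factors were chosen with earlier results of these data known, so the comparison is a description and tests no excess over other genes. BACH2 and IRF4 were higher in SUDHL6, and EBF1 and POU2AF1 were lower in SUDHL6. BCL6, PAX5, IRF8, SPIB and SPI1 reached the dim level and differed by less than 1, and PRDM1 was under the dim level of each line. The median difference of the 10 was -0.43, and that of the 9 that reached the dim level was -0.50. The median size of difference of the 10, signs set aside, was 0.72. Over the 9405 genes that reached the dim level the median difference was -0.05 and the median size 0.30. In sign, 4 of the 10 lay above HT in SUDHL6 and the other 6 lay under it, as did 53.5% of the 9405 genes.

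**Figure D1:**
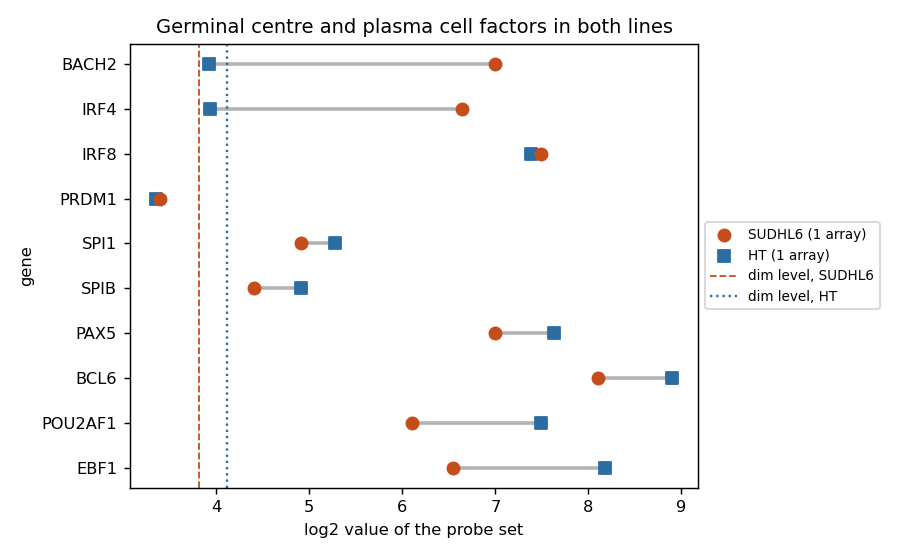
Log2 value of the probe set of each factor (x axis) in SUDHL6 (circles) and HT (squares), 1 array each, with the dim level of each line as a broken line. BACH2 and IRF4 lie far above the dim level in SUDHL6 and just below it in HT (3.92 and 3.93), while PRDM1 lies below it in both lines.

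The promoters of 3 of the factors that differed are shown with that of BCL6, because they let the sequence at each start site be read beside the expression values. Windows of 300 bases, from 250 before to 50 after an annotated start, were taken from RefSeq on GRCh38.p14. They were available for 8 of the 10 factors, in 11 windows. Capitals mark matches on either strand to 8 short motifs: the octamer ATTTGCAT, the ETS core GAGGAA, the ETS and IRF composite GGAANNGAA, the BCL6 motif TTCCTAGAA, the EBF1 core CCCNNGGGA, the AP-1 motif TGAGTCA that BACH2 and BATF complexes also bind, the NF-kB motif GGGANTTTC and the TATA box TATAAA. No 2 matches overlapped in these windows.
IRF4, chr6:391502-391801, plus strand: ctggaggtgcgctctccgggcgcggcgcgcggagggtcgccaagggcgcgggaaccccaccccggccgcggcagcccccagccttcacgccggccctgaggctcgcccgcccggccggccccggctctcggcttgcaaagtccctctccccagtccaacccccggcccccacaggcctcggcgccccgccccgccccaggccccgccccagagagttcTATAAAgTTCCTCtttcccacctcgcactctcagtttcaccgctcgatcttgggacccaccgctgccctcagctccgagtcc
BACH2, chr6:90296794-90297093, minus strand: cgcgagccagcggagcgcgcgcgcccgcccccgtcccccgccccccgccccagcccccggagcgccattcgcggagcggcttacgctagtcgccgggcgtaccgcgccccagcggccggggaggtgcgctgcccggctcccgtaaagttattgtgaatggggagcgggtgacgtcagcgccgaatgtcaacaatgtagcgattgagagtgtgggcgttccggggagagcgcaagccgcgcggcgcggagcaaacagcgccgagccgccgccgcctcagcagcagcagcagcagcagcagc
EBF1, chr5:159097907-159098206, minus strand: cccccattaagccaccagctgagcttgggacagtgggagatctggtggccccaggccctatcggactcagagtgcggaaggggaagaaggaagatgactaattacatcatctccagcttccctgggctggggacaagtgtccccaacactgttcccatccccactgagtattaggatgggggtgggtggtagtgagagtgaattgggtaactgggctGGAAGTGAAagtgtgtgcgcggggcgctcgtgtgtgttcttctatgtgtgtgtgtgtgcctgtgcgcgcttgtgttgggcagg
BCL6, chr3:187745419-187745718, minus strand: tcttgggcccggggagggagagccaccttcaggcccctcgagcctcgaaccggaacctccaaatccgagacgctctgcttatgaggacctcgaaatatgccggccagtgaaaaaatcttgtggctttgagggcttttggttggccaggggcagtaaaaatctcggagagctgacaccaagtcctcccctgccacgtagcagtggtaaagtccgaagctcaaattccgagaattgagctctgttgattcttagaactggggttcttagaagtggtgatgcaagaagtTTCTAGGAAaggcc

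The IRF4 window held a TATA box 32 bases before the start and an ETS core beside it, 25 bases before the start. These motifs occur in 11.5% and 27.9% of the 35116 promoter windows of the table, so neither is rare. The EBF1 window held the ETS and IRF composite (7.79% of windows) 33 bases before its start. The first BCL6 window held the BCL6 motif, found in 0.37% of windows, 37 bases into the transcribed part. BCL6 is known to bind its own first exon and to repress itself there. The BACH2 window held none of the 8 motifs. It held 45 CpG dinucleotides, more than 96.5% of all windows, and the IRF4 window held 32, against 8 in the EBF1 window and a median of 14. The first BCL6 window held 12 and the PAX5 window, not shown, held 30. Both of these genes had lower values in SUDHL6. Among the windows not shown, the second PRDM1 window held an AP-1 motif (4.95% of windows) on the minus strand and an ETS and IRF composite. The second BCL6 window held an AP-1 motif too. An ETS core was in the PAX5 window and the first PRDM1 window, and the TATA box motif was in the PAX5 and SPIB windows. The octamer, the EBF1 core and the NF-kB motif were in none of the 11 windows. Over all windows they occur in 1.77%, 8.86% and 1.28%, so their absence from 11 is not unusual. A match is a string of letters and does not show binding, and a window without a match says nothing of the factor.

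BACH2 and IRF4 had the widest differences among the 10 factors. The BACH2 probe set stood at 7.00 in SUDHL6 and 3.92 in HT (difference 3.08). The HT value lay 0.19 below the dim level of that line, so the fold is a bound, at least 7.37-fold higher in SUDHL6. Of the 9405 genes, 67 (0.71%), BACH2 included, were higher in SUDHL6 by as much. The IRF4 probe set stood at 6.65 in SUDHL6 and 3.93 in HT (difference 2.72) and at least 5.79-fold. Here 85 genes (0.90%), IRF4 included, were as far above HT. BACH2, which opposes plasma cell development, and IRF4, which drives it at high levels, thus differed in the same direction, both above the dim level in SUDHL6 and below it in HT.

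EBF1 and POU2AF1 were lower in SUDHL6 but well above the dim level in both lines. EBF1, the pioneer factor of B cell commitment, stood at 6.54 in SUDHL6 and 8.18 in HT (difference -1.64), which is 3.12-fold higher in HT. Among the 9405 genes, 236 (2.51%) were as low relative to HT, EBF1 included. POU2AF1, the octamer coactivator that germinal centre formation requires in mice, stood at 6.10 in SUDHL6 and 7.49 in HT (difference -1.39) and 2.62-fold. Here 349 genes (3.71%) were as low, POU2AF1 included, and its neighbours on chromosome 11 were lower too, with a median of -1.65. POU2F2 (OCT2), the B cell octamer factor that POU2AF1 binds, stood at 6.09 in SUDHL6 and 6.44 in HT (difference -0.35).

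BCL6, PAX5, SPIB and SPI1 had lower values in SUDHL6 by less than 1. BCL6 stood at 8.10 in SUDHL6 and 8.90 in HT (-0.80), and 10.2% of the 9405 genes were as low relative to HT. PAX5 stood at 7.00 in SUDHL6 and 7.63 in HT (-0.63). SPIB stood at 4.40 and 4.91 in the same order, and SPI1 at 4.92 and 5.27. The SPIB values lay only 0.59 and 0.79 above the dim levels of SUDHL6 and HT, and those of SPI1 1.10 and 1.16. The lower and upper quartiles of the differences of all 9405 genes were -0.38 and 0.22. BCL6, PAX5 and SPIB lay outside this middle range and SPI1 (-0.36) inside it. IRF8, which germinal centre B cells and myeloid cells use, was the closest to equal among the factors above the dim level, at 7.49 in SUDHL6 and 7.38 in HT (0.10).

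PRDM1 stood at 3.39 in SUDHL6 and 3.35 in HT, below both dim levels. Such a value does not mean that the gene was off. Of 17 other plasma cell genes listed, 15 had a value and 12 reached the dim level. Of these 12, 4 differed by at least 1, against 12.3% of all genes that reached it, and 3 of the 4 were higher in SUDHL6 and 1 was lower. JCHAIN, the joining chain of polymeric antibodies, stood at 10.37 in SUDHL6 and 8.56 in HT, CD38 at 8.83 and 7.37, and TNFRSF17 (BCMA) at 7.16 and 5.90. SEC11C, a signal peptidase subunit gene, stood at 5.97 in SUDHL6 and 7.60 in HT. XBP1, the factor that builds the secretory machinery, stood at 6.43 in SUDHL6 and 6.61 in HT, and the median of the list was -0.16. Of 6 genes with a value that PRDM1 is known to repress, 5 reached the dim level and 0 of these differed by at least 1, with a median of 0.17 over the 6. In that list CD22 stood at 9.13 in SUDHL6 and 8.55 in HT and BLNK at 9.43 and 9.99.

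**Figure D2:**
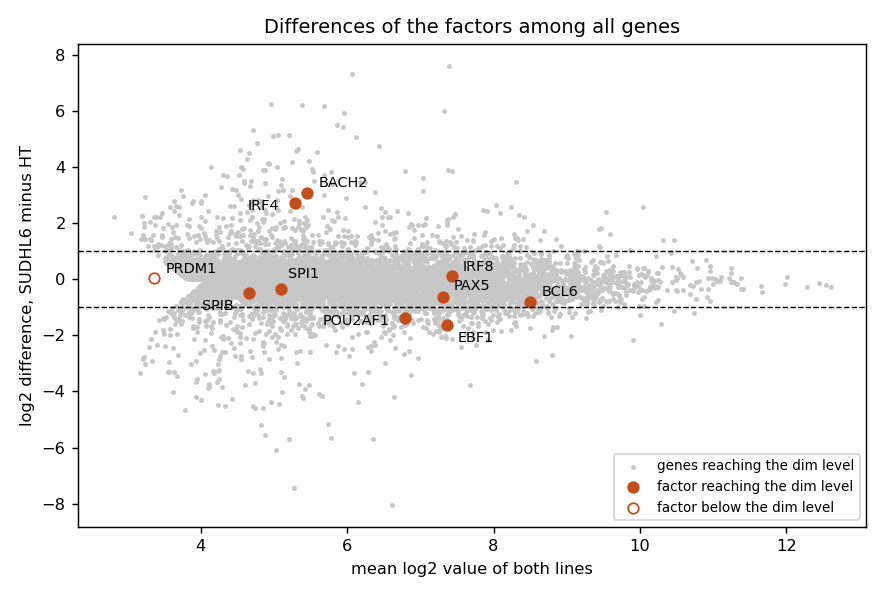
Difference, SUDHL6 minus HT (y axis, log2), against the mean log2 value of both lines (x axis) for the 9405 genes that reached the dim level (grey) and the 10 factors, with broken lines at 1 and -1. BACH2 (3.08) and IRF4 (2.72) lie above the upper line, EBF1 (-1.64) and POU2AF1 (-1.39) below the lower one, and the open circle is PRDM1.

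Among the relatives of the factors, all 6 measured IRF genes other than IRF4 and IRF8 reached the dim level, and 0 of the 6 differed by at least 1, against 12.3% of all genes at that level. They included IRF2 at 7.91 in SUDHL6 and 7.02 in HT and IRF7 at 5.22 and 5.13. IRF2 passed 1 after quantile or loess scaling. Of 10 other ETS genes with a value, 7 were at or above the dim level in their higher line, and 0 of these differed by at least 1, with ELF1 at 10.52 in SUDHL6 and 10.09 in HT and ELK4 at 8.22 and 8.46, and the list median was -0.22. A probe set that FLI1 shares with EWSR1 stood at 6.35 in SUDHL6 and 4.10 in HT and is not counted there. Of 12 PAX, EBF and POU2 relatives with a value, 7 had a higher value at or above the dim level, and 0 of the 7 differed by at least 1.

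Of 11 BCL6 corepressor genes and relatives with a value, 9 were at or above the dim level in their higher line, and 0 of these differed by at least 1. MTA3, a corepressor subunit that BCL6 recruits, stood at 7.02 in SUDHL6 and 7.82 in HT, and TBL1XR1 at 9.07 and 8.45. Of these 11 genes, 8 had a lower value in SUDHL6, among them ZBTB16 and BCL6B, which did not reach the dim level. A lower value in SUDHL6 was also found for 53.5% of all genes that reached the dim level. Of 11 BATF, AP-1, STAT3 and NF-kB genes with a value, 10 were at or above the dim level in their higher line, and 2 of these differed by at least 1, against 12.3% of all genes at that level. REL, an NF-kB subunit that activates IRF4 in B cells, stood at 8.63 in SUDHL6 and 6.31 in HT, and STAT3 at 6.18 and 8.16. A probe set that NFKBIZ shares with NXPE3 stood at 6.87 in SUDHL6 and 5.06 in HT. BACH1, the close relative of BACH2, was just under the limit at 6.02 in SUDHL6 and 5.02 in HT (difference 0.997), and passed it under each of 3 other scalings. MAFG, one of the small MAF genes whose proteins pair with BACH2, stood at 5.06 and 5.23.

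Of 14 genes repressed by BCL6 with a value, 8 were at or above the dim level in their higher line, and 2 of these differed by at least 1, against 12.3% of all genes at that level. BCL2, the survival gene, was higher in SUDHL6 (5.23 against 3.57 in HT, at least 2.17-fold), and ID2, an inhibitor of E proteins, was lower (4.72 in SUDHL6, 6.31 in HT). Of 12 genes activated by PAX5 or EBF1 with a value, 11 were at or above the dim level in their higher line, and 4 of these differed by at least 1. LEF1 (7.48 in SUDHL6, 4.11 in HT) and CD72 (5.92 and 3.76) were higher in SUDHL6. CD72 also shares a probe set with TESK1, which differed by only 0.38. VPREB3 (7.45 in SUDHL6, 10.15 in HT) and the complement receptor gene CR2 (2.52 and 5.86) were lower, and the list median was -0.05. Genes repressed by PAX5 gave 0 of 5, only 1 of which reached the dim level, NOTCH1 at 4.20 in SUDHL6 and 4.07 in HT. CSF1R, a PAX5-repressed myeloid receptor gene, lay below it at 3.53 and 3.45.

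All 8 measured genes activated by PU.1 or IRF8 reached the dim level, and 4 of the 8 were at least 1 apart, 2 in each direction, against 12.3% of all genes at that level. CYBB, the catalytic subunit of the phagocyte oxidase, stood at 9.37 in SUDHL6 and 5.50 in HT (14.6-fold), and MS4A1 (CD20) at 11.33 and 8.75. FCGR2B, the inhibitory Fc receptor gene, stood at 4.90 in SUDHL6 and 6.47 in HT, and NCF4, another oxidase subunit gene, at 4.11 and 5.71. The other 4 of the 8 were within 1, and the median was -0.02. Of 16 other B cell transcription factors with a value, 15 were at or above the dim level in their higher line, and 4 of these differed by at least 1. IKZF2 (7.69 in SUDHL6, 3.86 in HT), MYB (6.09 and 4.21) and BCL11A (6.77 and 5.45) were higher in SUDHL6. MEF2C was lower, at 4.55 in SUDHL6 and 8.74 in HT.

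**Figure D3:**
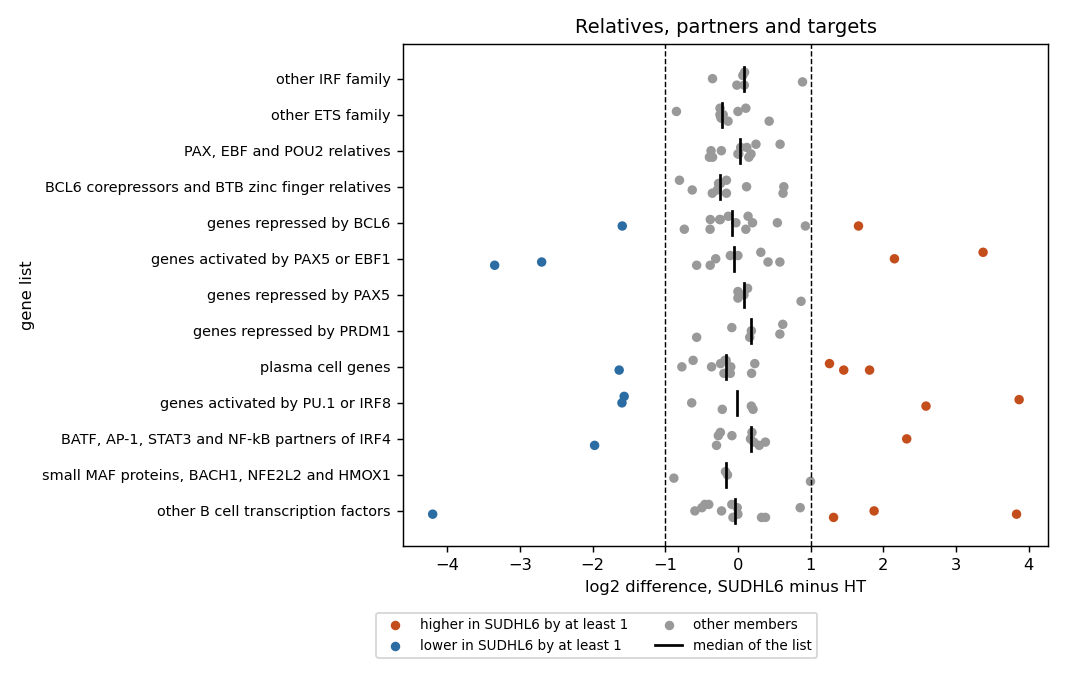
Difference, SUDHL6 minus HT (x axis, log2), of each gene with a value in 13 lists of relatives, partners and targets (rows). Coloured points differ by at least 1 with the higher value at the dim level, the black bar is the list median, and the medians lie between -0.24 and 0.17.

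The neighbours of the factors on their chromosomes were examined next, to see whether a difference was local to the gene. Each factor was set beside its 10 nearest genes that reached the dim level, 5 on each side in the gene order of GRCh38.p14. POU2AF1, on chromosome 11, lay in a stretch of genes that were nearly all lower in SUDHL6. All 10 neighbours had a lower value there, 9 by at least 1, and their median of -1.65 was below the -1.39 of POU2AF1 itself. Of the 60 nearest, 31 were lower by at least 1 and 0 higher, against 7.09% lower among the 508 other genes of chromosome 11. IL18, the tenth gene to the right of POU2AF1, differed by -4.29, SDHD, a mitochondrial complex II gene, by -3.34 and CUL5 by -1.07. Neighbour medians as low as that of POU2AF1 were found around 15 (0.16%) of 9162 genes, POU2AF1 included, 12 of them on chromosome 11. The POU2AF1 difference and that of its neighbours cannot be told apart in these data, and DNA copy number was not analysed here.

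The other 3 differences were not shared by the adjacent genes to that degree. EBF1 (-1.64), on chromosome 5, had neighbours with a median of -0.25, 0 of 10 of them different by at least 1. BACH2 (3.08), on chromosome 6, stood between CASP8AP2 (0.09) and MAP3K7 (-0.28), and its 10 neighbours had a median of 0.07. RRAGD (3.44) and UBE2J1 (1.77), the fourth and the fifth gene to the left, were higher in SUDHL6. IRF4 (2.72) lies near the end of chromosome 6, where 6 neighbours could be used. All 6 had a higher value in SUDHL6, with a median of 0.61, and DUSP22, the gene to its left, differed by 1.19. The 481 other genes of chromosome 6 had a median of 0.25, and 13.5% of them were higher in SUDHL6 by at least 1, against 5.3% of all genes. PRDM1, on the same chromosome, had neighbours with a median of 0.01. The parts that these regional values have in the differences of IRF4 and BACH2 were not tested. For BCL6, PAX5, IRF8, SPIB and SPI1 the neighbour medians lay between -0.24 and -0.07.

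**Figure D4:**
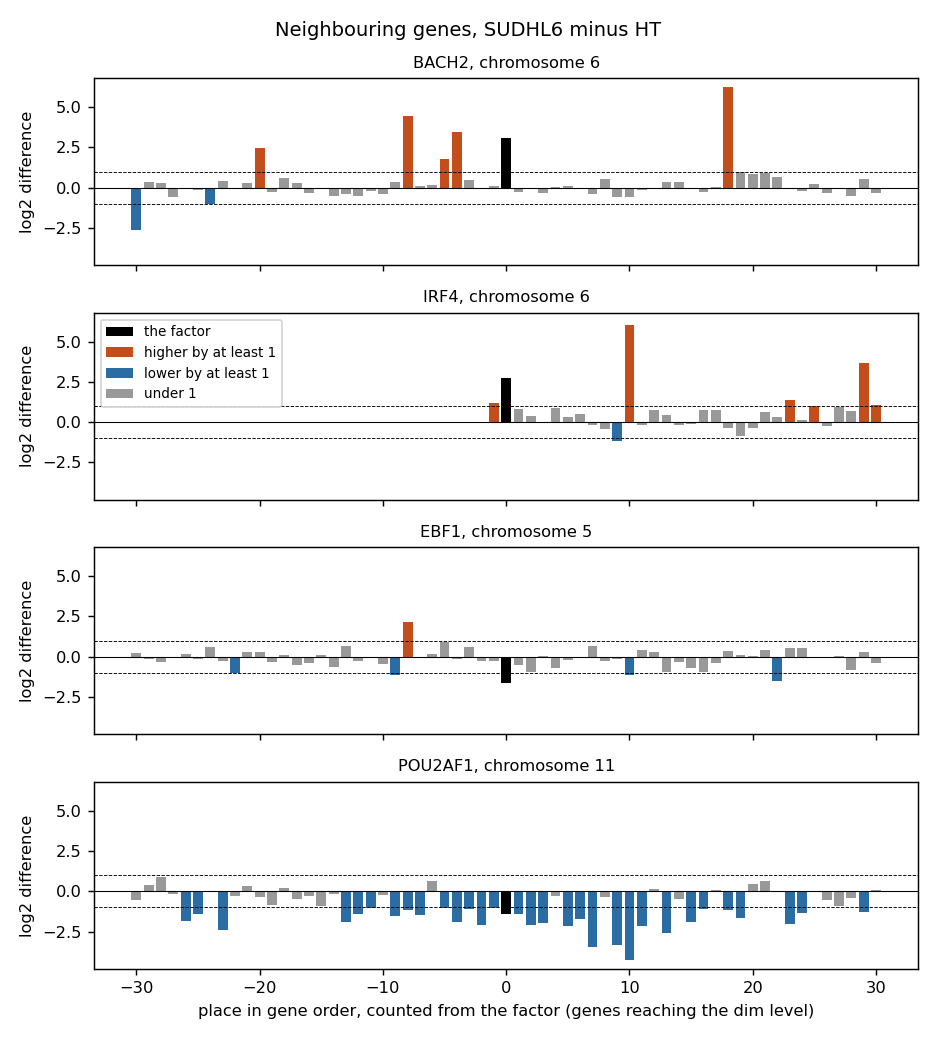
Difference, SUDHL6 minus HT (y axis, log2), of up to 30 genes on each side of BACH2, IRF4, EBF1 and POU2AF1 (black), in gene order (x axis) and not to distance. Around POU2AF1, 50 of 60 genes have a lower value in SUDHL6, and around BACH2 29 of 60 do.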

How the data were processed

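Total RNA of untreated SUDHL6 and HT cells was measured on 1 array per line. The deposited values are log2 probe set levels. The authors used RMA and Affymetrix Expression Console, per the submitters' processing notes. Software versions, RMA settings, how many arrays were normalized jointly and the build were not given in the sources used here. A log2 scale was read from the values, which ran from 0.333 to 13.99 in SUDHL6 and from 0.385 to 13.97 in HT. Genes were named from GEO's platform annotation for 16840 of 22011 probe sets, 14432 with 1 gene, 2408 with several, and 5171 unnamed here. Gene numbers updated the symbols through RefSeq (GRCh38.p14) for 14404 of the 14432, and that table gave gene order. The probe set with the highest mean stood for a gene. Folds are 2 to the power of the difference, and "at least" marks a fold against the dim level. The members and lists were chosen with earlier results of these data known. Named genes are the 10 factors and, per list, up to 4 members that differed by at least 1 or else the 2 of highest mean. Markers, XBP1, POU2F2, neighbouring genes and genes of shared probe sets were named after their values were seen. The code was tested on simulated arrays with changes above the threshold in bright genes and little noise. That checks the code and gives no error rate for these arrays. Python 3.11.15, pandas 2.3.3 and statsmodels 0.14.6 were used. Alternatives changed the scaling, probe set choice, dim level and threshold, and leaving out a replicate was not possible.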

Additional observations from a re-analysis of the deposited data

How the results depend on the processing

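Under 10 other settings BACH2 ranged from 2.88 to 3.15, IRF4 from 2.53 to 2.79, EBF1 from -1.64 to -1.52 and POU2AF1 from -1.39 to -1.27. Only quantile scaling, loess scaling, subtracting the overall median or raising values to the dim level could move these differences. The other settings could not, because each factor had 1 unshared probe set and changed limits alter only which genes are counted. All 4 factors kept their direction, and only POU2AF1 left the set, where a difference of at least 1.5 was asked and 1 factor was lower. At a difference of at least 0.5, BCL6, PAX5 and SPIB were added, which gave 7 factors, 5 of them lower. Over all genes that reached the dim level, 560 (5.95%) differed at 1.5 and 3068 (32.6%) at 0.5, against 1155 at 1. At 1.5 the plasma cell genes fell from 4 to 2, JCHAIN and SEC11C, and the other B cell transcription factors from 4 to 3. Most lists with 0 genes counted at 1 gained some at 0.5. BCL6 corepressors and relatives gave 4, genes repressed by PRDM1 3, the list of small MAF genes and BACH1 2, and other IRF and other ETS genes 1 each. The PAX, EBF and POU2 relatives and the genes repressed by PAX5 stayed at 0. Subtracting the median of the nearest genes, an alternative chosen after seeing the data, turned POU2AF1 to 0.26 and left 1 factor lower (EBF1), and it moved IRF4 to 2.11. Quantile and loess scaling brought IRF2, BACH1 and CD80 past a difference of 1, the last of which gave 3 genes repressed by BCL6 against 2, and subtracting the median of all genes above the dim level did so for BACH1. With shared probe sets included, 1 other ETS gene was counted, FLI1, NFKBIZ raised the count of IRF4 partners to 3 against 2, and CD72 fell out, which left 3 genes activated by PAX5 or EBF1 against 4. No list median moved by 0.5 or more under the scaling, probe set and dim level alternatives, but those of the genes repressed by PAX5 and by BCL6 were -0.30 with values raised to the dim level, the value raising gives to a gene dim in both lines. No paired analysis was possible because each line has 1 array. Signal over background limits SPIB, SPI1 and PRDM1, which lay near or below the dim level.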
